A study of Homo sapiens with 4 samples.

Results

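Shared promoters are H3K27ac regions that cover the starts of 2 or more genes, and 1376 of the 91107 distinct regions in the authors' deposited table were of this kind. They were found by counting, for each region, the different genes listed at a distance of 0, taken to mean that it covers their transcription start. Of the 1376 regions, 1273 listed 2 genes, 90 listed 3, 7 listed 4, 4 listed 5 and 2 listed 6. They are set beside 9266 regions with exactly 1 gene at a distance of 0, called single-gene promoters. The libraries are ChIP-seq for H3K27ac, acetylated lysine 27 of histone H3, in the human melanoma line A375, long established in culture. Both groups were A375 cells kept for 48 hours, 2 libraries with the vehicle isopropanol and 2 with octanoate, a medium-chain fatty acid salt, at 1 mM. All libraries come from 1 cell line, and the labels do not say whether the libraries of a group came from separate cultures, so p-values measure only the spread between these libraries, which may be technical. The authors' deposited table gives 1 comparison of these groups and no value per library, so the depth is unknown, the level in each library cannot be shown, and every error below is the standard error of the authors' model.

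In a bidirectional promoter, 2 genes on opposite strands are transcribed away from each other from a short common stretch of DNA. Such promoters are common in the human genome, lie mostly in CpG islands, usually lack a TATA box and serve many genes of DNA repair, mitochondria and basic cell upkeep. H3K27ac marks the nucleosomes that flank active starts, and the acetyl group comes from acetyl-CoA, which the oxidation of fatty acids also makes.

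The header does not name the numerator of the fold change, so values are called positive or negative and not gain or loss. Of the 13 melanocyte and melanoma markers looked for, 9 had an H3K27ac region at their start (AXL, EDNRB, MITF, NGFR, PAX3, PMEL, S100B, SOX10 and SOX9), against 0 of 6 keratinocyte, 1 of 6 leukocyte and 1 of 5 endothelial markers. MLANA, TYR, TYRP1 and DCT, which define pigmented melanocytes, had none. The region at PMEL also covered the starts of CDK2 and RAB5B, so its signal need not belong to PMEL.

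The reference sequence shows what such promoters look like. Each window below runs from 250 bases before a RefSeq start to 50 bases after it, 5′ to 3′ on the gene's own strand, in GRCh38.p14, so that the start is base 251. Capitals mark every match, on either strand, to 1 of 9 short motifs: the ETS site CCGGAA, the NRF1 site GCGCATGCG, the YY1 site AAGATGGCG, the CCAAT box CCAAT, the GC box GGGCGG, the TATA box TATAAA, the E-box CACGTG, the CRE TGACGTCA and the AP-1 site TGANTCA. A match is a description of letters and not a shown binding site. The first 3 windows belong to regions that passed the test between octanoate and vehicle: HES4 (chr1:1000048-1000347, minus strand), AP3S1 (chr5:115841685-115841984, plus strand) and ATG12 (chr5:115841516-115841815, minus strand).
HES4: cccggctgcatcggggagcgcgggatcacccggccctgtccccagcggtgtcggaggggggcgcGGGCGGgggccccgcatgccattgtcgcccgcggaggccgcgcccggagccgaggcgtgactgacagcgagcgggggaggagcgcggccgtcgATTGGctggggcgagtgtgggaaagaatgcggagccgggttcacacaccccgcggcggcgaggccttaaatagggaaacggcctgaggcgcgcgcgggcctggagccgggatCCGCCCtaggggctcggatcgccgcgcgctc
AP3S1: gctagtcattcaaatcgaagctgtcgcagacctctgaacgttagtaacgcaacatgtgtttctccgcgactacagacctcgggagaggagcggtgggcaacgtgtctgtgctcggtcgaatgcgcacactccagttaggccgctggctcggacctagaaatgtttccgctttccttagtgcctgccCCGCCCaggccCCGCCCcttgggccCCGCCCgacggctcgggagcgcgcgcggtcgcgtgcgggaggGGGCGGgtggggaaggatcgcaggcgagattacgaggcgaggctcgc
ATG12: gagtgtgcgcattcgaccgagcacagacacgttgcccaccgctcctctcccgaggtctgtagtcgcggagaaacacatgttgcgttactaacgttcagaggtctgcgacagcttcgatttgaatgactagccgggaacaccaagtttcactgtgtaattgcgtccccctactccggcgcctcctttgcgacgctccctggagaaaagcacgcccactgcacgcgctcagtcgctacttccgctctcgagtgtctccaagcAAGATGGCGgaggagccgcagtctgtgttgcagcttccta

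The AP3S1 and ATG12 starts lie 370 bases apart and point away from each other, so the first part of each window is the other's in reverse complement. The AP3S1 window held 4 GC boxes. The ATG12 window held a YY1 match at base 261, just inside the transcript. The next windows are of HADHA (chr2:26244583-26244882, minus strand) and HADHB (chr2:26244689-26244988, plus strand), a divergent pair that encodes both subunits of the mitochondrial trifunctional protein of fatty acid oxidation, with starts 307 bases apart. GABPA (chr21:25734722-25735021, plus strand) encodes an ETS transcription factor and shares its promoter with ATP5J, a subunit of ATP synthase.
HADHA: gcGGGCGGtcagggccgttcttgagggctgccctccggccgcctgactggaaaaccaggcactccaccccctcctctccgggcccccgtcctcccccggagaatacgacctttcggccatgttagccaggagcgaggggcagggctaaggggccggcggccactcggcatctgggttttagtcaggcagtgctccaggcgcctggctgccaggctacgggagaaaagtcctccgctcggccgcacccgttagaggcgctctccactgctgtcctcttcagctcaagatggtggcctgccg
HADHB: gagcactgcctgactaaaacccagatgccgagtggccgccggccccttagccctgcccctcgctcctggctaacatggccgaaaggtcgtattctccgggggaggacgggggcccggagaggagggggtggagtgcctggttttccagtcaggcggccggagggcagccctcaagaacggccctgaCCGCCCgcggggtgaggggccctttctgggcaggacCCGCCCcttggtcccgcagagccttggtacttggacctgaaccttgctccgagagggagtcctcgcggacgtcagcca
GABPA: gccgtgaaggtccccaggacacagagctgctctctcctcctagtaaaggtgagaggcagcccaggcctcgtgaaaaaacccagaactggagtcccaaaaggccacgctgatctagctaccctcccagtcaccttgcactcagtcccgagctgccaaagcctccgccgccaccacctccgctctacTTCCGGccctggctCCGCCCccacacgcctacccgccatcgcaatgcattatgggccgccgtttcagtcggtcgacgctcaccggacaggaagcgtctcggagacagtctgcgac

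The HADHA window held 1 GC box and the HADHB window 2. In the GABPA window the ATP5J start lay at base 183, and an ETS match, on the opposite strand, began at base 186. The last windows are of 2 histone genes of shared promoters, HIST1H2BB (listed by RefSeq as H2BC3, chr6:26043664-26043963, minus strand) and HIST3H2A (listed as H2AC25, chr1:228457824-228458123, minus strand). They are shown because the fold change of the first region lay below the lower quartile of shared promoters and that of the second between their quartiles.
HIST1H2BB: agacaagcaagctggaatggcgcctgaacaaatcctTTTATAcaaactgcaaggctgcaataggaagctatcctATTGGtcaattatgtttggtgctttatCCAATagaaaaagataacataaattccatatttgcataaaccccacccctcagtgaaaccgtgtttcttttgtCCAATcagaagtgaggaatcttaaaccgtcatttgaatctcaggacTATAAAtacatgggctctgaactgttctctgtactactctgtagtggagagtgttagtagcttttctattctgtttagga
HIST3H2A: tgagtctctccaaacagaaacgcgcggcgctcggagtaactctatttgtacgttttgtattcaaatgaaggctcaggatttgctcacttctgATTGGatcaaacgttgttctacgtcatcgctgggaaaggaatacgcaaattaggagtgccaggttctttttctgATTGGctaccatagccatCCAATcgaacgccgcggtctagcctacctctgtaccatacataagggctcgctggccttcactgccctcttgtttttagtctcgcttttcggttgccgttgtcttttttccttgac

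The HIST1H2BB window held 3 CCAAT boxes and 2 TATA matches, of which the one on the coding strand began at base 221. The HIST3H2A window held 3 CCAAT boxes and no TATA match, and its partner's start, that of HIST3H2BB, lay at base 21. No window was at hand for ISG15.

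Most pairs that could be placed were bidirectional by the strands and starts of their genes. Of the 2876 gene names in shared promoters, 2397 matched a current RefSeq symbol, 231 an older one and 248 neither. Both starts could be placed inside the region for 787 of the 1273 regions with 2 genes. Among these, 663 pairs (84.2%) were divergent, 59 ran on opposite strands with overlapping heads, and 65 ran on the same strand. The remaining 486 were not placed, 244 because a gene had no window, 188 because a symbol was not matched and 54 because a start lay outside the region. Of the 103 regions with 3 or more genes, 64 held at least 1 divergent pair. Same-strand cases included read-through genes and pairs with 1 common start, such as ITGA1, an integrin subunit, and PELO, a ribosome rescue factor, at a distance of 0 between starts. In 32 of the 65 same-strand regions the starts were identical.

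**Figure D1:**
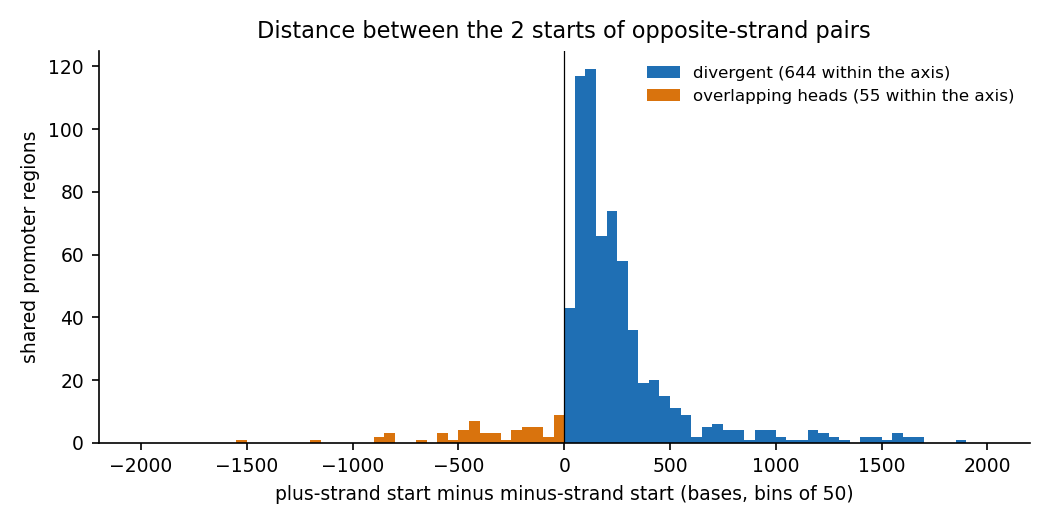
Distance between the 2 starts of opposite-strand gene pairs in shared promoters (x axis, bases, bins of 50, plus-strand start minus minus-strand start) against the number of regions (y axis), with divergent pairs in blue and overlapping heads in orange. Most pairs sit just right of 0, and the median of all 663 divergent pairs was 185 bases.

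The starts of divergent pairs lay a median of 185 bases apart, and 617 pairs (93.1%) lay within 1000 bases. By distance, 160 pairs were at most 100 bases apart, the next 186 at most 200, the next 221 at most 500, the next 50 at most 1000 and the last 46 further. The median log2 fold change of H3K27ac in these 5 bins, from the shortest distance to the longest, was 0.31, 0.30, 0.30, 0.33 and 0.32. The median level of the region per distance bin ran from 108 at the shortest distances to 200 at the longest, while the median width ran from 3954.5 to 6996.5 bases. A wider region can hold starts that lie further apart, so this order is partly set by the choice of regions.

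Around divergent starts the acetylated region reached about as far upstream as downstream, which largely follows from how the 2 genes share it. For the 1232 genes of divergent pairs within 1000 bases (616 regions with an adjusted p-value), the region reached a median of 2164 bases upstream of the start and 1979 bases into the gene. For 5172 single-gene promoters with no other RefSeq start inside, the medians were 916 bases upstream and 2026 bases downstream. The downstream side was the longer one for 85.9% of those single genes, against 43.5% of the genes of divergent pairs. A shared region covers the partner's start by the way it was chosen, and upstream of one gene is downstream of the other. The near-equal medians of divergent pairs and their 43.5% thus largely follow from this layout, whatever the shape of the region. Single genes have no such constraint, so the 85.9% and the 43.5% are not a like comparison. In 1178 single-gene promoters that hold the divergent start of another RefSeq gene the medians were 1263 bases upstream and 2338 downstream, and their upstream reach is likewise partly set by the choice of regions. In 617 divergent pairs, the longer downstream reach was a median of 1.55 times the shorter, and it was over 2 times in 30.1% of the pairs. This ratio cannot fall below 1 by the way it is formed, and no reference value was at hand to set beside it.

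**Figure D2:**
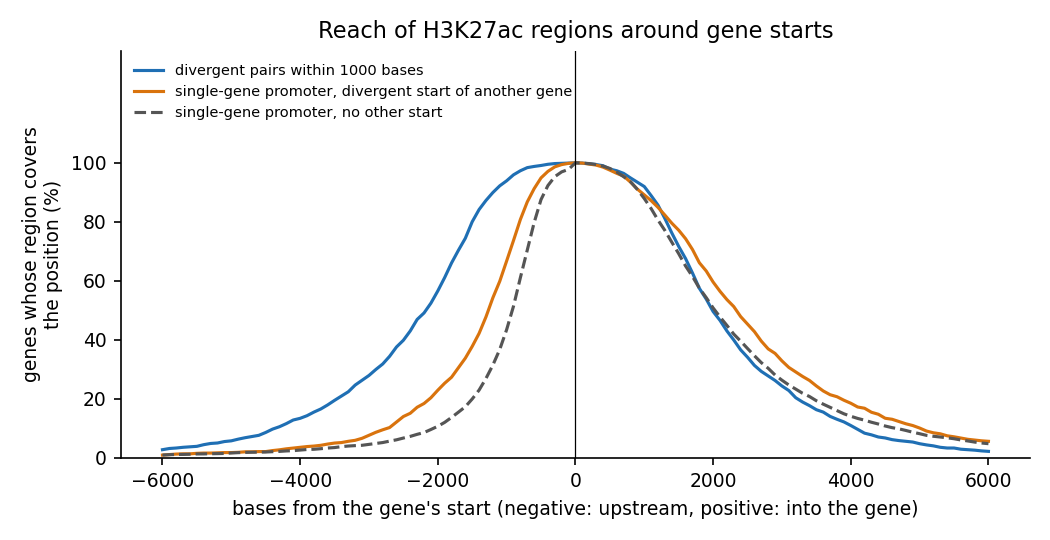
Share of genes whose H3K27ac region covers each position (y axis, %) against the distance from the start (x axis, bases, negative upstream), for genes of divergent pairs within 1000 bases (blue), single-gene promoters that hold a divergent start of another gene (orange) and single-gene promoters with no other start (dashed). At 1000 bases upstream the region covered 93.9% of the divergent genes, 66.7% of the orange set and 43.4% of the dashed set, while at 1000 bases downstream the shares were 92.0%, 89.1% and 87.9%. The near-symmetry of the blue curve largely follows from counting both genes of each shared region.

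Shared promoters were wider than single-gene promoters and carried more H3K27ac signal per region. The median mean level, in the authors' normalized units over the whole region, was 119 in the 1365 shared promoters with an adjusted p-value, 83.4 in 8631 single-gene promoters and 47.9 in all 36436 such regions. The median width was 4275 bases in shared promoters, 3177 in single-gene promoters and 2564 in all. Per 1000 bases the median levels were closer, at 27.6, 25.6 and 19.3. A wide region overlaps more starts, so the difference in width is partly built into the choice of regions.

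In the authors' deposited table the shared promoter with the highest level, 1459, was also the widest of them, 36165 bases at C16orf52 and PDZD9 on chromosome 16 (22000664 to 22036829). The region of CCDC85B, FIBP and FOSL1, the last an AP-1 subunit, had a level of 1028 over 21943 bases in that deposited table. The S100A3, S100A4, S100A5 and S100A6 region, of calcium-binding proteins, followed there at 981. RHOF and SETD1B, an H3K4 methyltransferase subunit, stood at 917 and APOLD1 and CDKN1B, the cell-cycle inhibitor p27, at 845 in the authors' deposited table. None of these 5 passed the test between octanoate and vehicle, with log2 fold changes of 0.31 ± 0.19, 0.49 ± 0.20, 0.33 ± 0.21, 0.43 ± 0.20 and 0.14 ± 0.20 (standard errors) and adjusted p-values from DESeq2 of 0.344, 0.17, 0.36, 0.235 and 0.664 in the deposited table.

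Between octanoate and vehicle, 3 of the 1365 tested shared promoters (0.220%) had an adjusted p-value under 0.05, and all 3 fold changes were positive. The background was 608 of 36436 tested regions, 1.67%, and single-gene promoters had 83 of 8631 (0.962%). Of the 608 background calls 601 were positive, as were all 83 of the single-gene promoters. At an unadjusted p under 0.05 the counts were 191 shared promoters (14.0%) and 1731 single-gene promoters (20.1%), against 18.4% of all tested regions. A region counts as tested when its adjusted p-value is below 1, since the table gives 1 where none was computed, and 11 shared promoters had no adjusted p-value. The differences between these shares were not tested, because neighbouring regions are not replicates.

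Values of 2 of the 3 called regions are given here. HES4, a Notch-related transcription repressor, and ISG15, a ubiquitin-like protein induced by interferon, shared a region on chromosome 1 (999351 to 1002299). The authors' deposited table gives it a level of 59.9, a log2 value of 1.07 ± 0.30 and a DESeq2 adjusted p of 0.035. AP3S1, a subunit of an adaptor for transport to lysosomes, and ATG12, a ubiquitin-like protein of autophagosome formation, shared the wide region on chromosome 5 (115835418 to 115847536) whose windows are printed above. That region had a level of 280, a log2 fold change of 0.72 ± 0.21 and a DESeq2 adjusted p of 0.0411 in the authors' deposited table. It was the 1 called region with a placed divergent pair.

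Closest to the threshold on the other side, and named after their values were seen, were P2RX5 with its read-through gene P2RX5-TAX1BP3 and ARHGAP9 with MARS. P2RX5 is an ATP-gated channel, and its region stood at 1.04 ± 0.32 (log2) and a DESeq2 adjusted p of 0.0563 in the authors' deposited table. MARS, the methionyl-tRNA synthetase, had 0.70 ± 0.22 and 0.0634 in that deposited table.

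Most tested regions had positive fold changes, and so the called values were also read against the common shift. The median log2 fold change of all tested regions was 0.32. After it was subtracted, 1 shared promoter passed the threshold, beside 45 of all tested regions (0.124%) and 2 single-gene promoters. The HES4 and ISG15 region then had 0.75 and an adjusted p of 0.59, and the AP3S1 and ATG12 region had 0.40 and an adjusted p of 0.901. With the deposited p-values adjusted over all distinct regions, HES4 and ISG15 had an adjusted p of 0.0863 and AP3S1 and ATG12 one of 0.101.

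**Figure D3:**
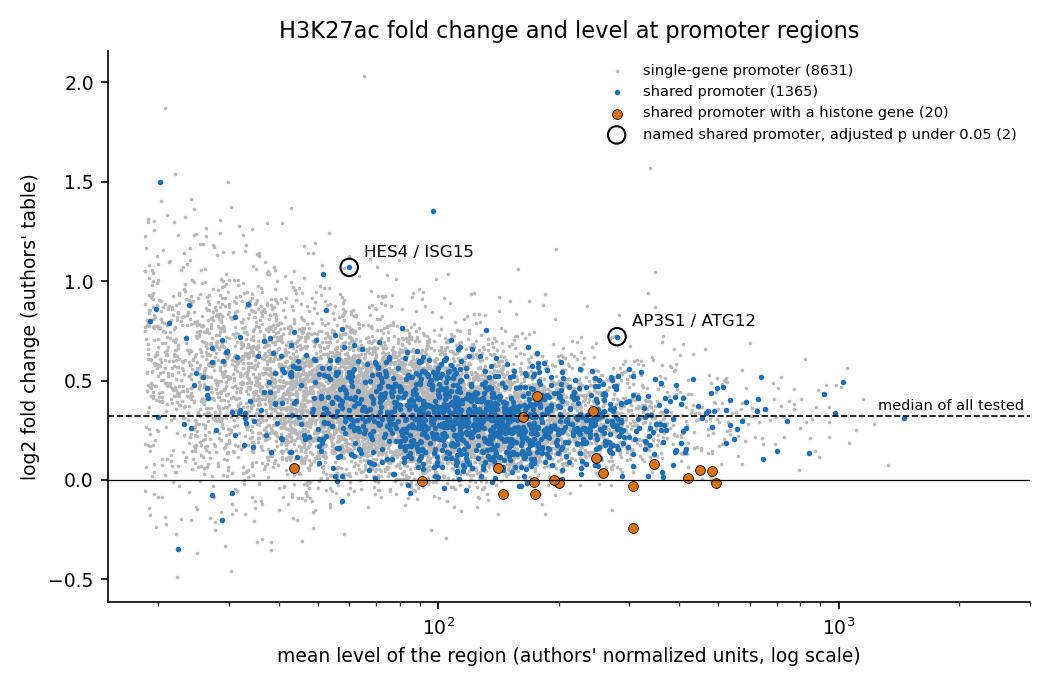
Log2 fold change between octanoate and vehicle (y axis) against the mean level of the region (x axis, authors' normalized units, log scale) for 8631 single-gene promoters (grey), 1365 shared promoters (blue) and, among the latter, 20 with a histone gene (orange). The 2 circled shared promoters passed the test and are named in the text, and both lie above the dashed median of all tested regions, 0.32, while 17 of the histone regions lie at 0.11 or below.

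As a group, shared promoters had fold changes close to the common shift and close to each other. The median log2 fold change was 0.31, against 0.36 in single-gene promoters and 0.32 in all tested regions. The fold change was positive in 1342 of 1365 shared promoters (98.3%), in 98.1% of single-gene promoters and in 87.3% of all tested regions. Above the median of all tested regions lay 46.5% of shared promoters and 57.8% of single-gene promoters. The standard deviation over regions was 0.17 in shared promoters, 0.22 in single-gene promoters and 0.31 in all. The lower and upper quartiles were 0.22 and 0.42 in shared promoters and 0.24 and 0.50 in single-gene promoters.

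Regions with more signal had smaller fold changes and smaller errors, and shared promoters often had high levels: 42.1% of them fell in the highest quartile of promoter level and 10.2% in the lowest. Within quartiles of level, from lowest to highest, the median was 0.41, 0.35, 0.32 and 0.28 in shared promoters and 0.47, 0.37, 0.33 and 0.30 in single-gene promoters. The standard deviation was lower in shared promoters in each of these 4 quartiles: 0.25 against 0.28, 0.16 against 0.19, 0.15 against 0.17 and 0.14 against 0.16. Calls in these quartiles numbered 0 of 139, 1 of 239, 1 of 412 and 1 of 575 shared promoters. In single-gene promoters they numbered 25 of 2360, 18 of 2260, 17 of 2087 and 23 of 1924. Single-gene promoters that hold a divergent start of another RefSeq gene had 4 calls in 1178 (0.340%), and those with no other start had 49 in 5172 (0.947%). Their median log2 fold changes were 0.34 and 0.36. In the set with a divergent start, the standard deviations in the 4 quartiles of level were 0.27, 0.18, 0.15 and 0.14. In the upper 2 quartiles these were close to those of shared promoters, so a narrow spread there was not particular to shared promoters.

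**Figure D4:**
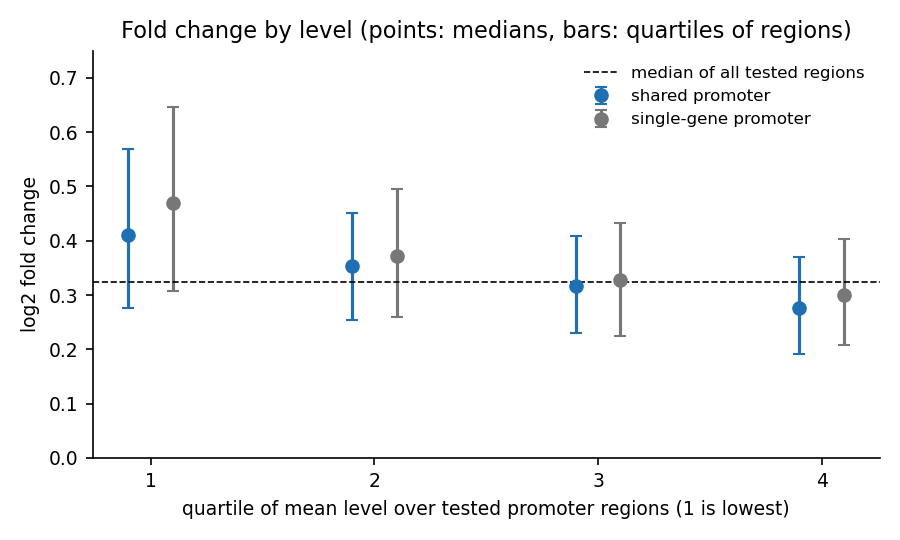
Median log2 fold change (points) with the lower and upper quartile of regions (bars) in 4 quartiles of mean level, for shared promoters (blue) and single-gene promoters (grey), with the median of all tested regions dashed. Both sets fall from the lowest to the highest level, shared promoters from 0.41 to 0.28 and single-gene promoters from 0.47 to 0.30.

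Of the 10 gene lists plotted, the histone genes had shared promoters with the lowest median fold change. Replication-dependent histone genes lie in clusters, often in head-to-head pairs, and are transcribed when DNA is copied. Of 69 histone genes with a region at their start, 56 lay in 20 shared promoters. Their median log2 fold change was 0.02, against 0.31 in all shared promoters and 0.32 in all tested regions, and 11 of the 20 were positive. These regions also had a higher median level, 222 against 119 in all shared promoters, and a greater median width, 8701.5 against 4275 bases. The shared promoters in the highest quartile of level had a median of 0.28, and the part of level in the histone values was not tested. None passed the test, beside 0.220% of all shared promoters and 1.67% of all tested regions. None had an unadjusted p under 0.05, beside 14.0% of all shared promoters and 18.4% of all tested regions. The 9 negative histone regions made up 9 of the 23 negative shared promoters.

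Both shared promoters with 6 genes, and 2 of the 4 tied at 5 genes, were in the histone cluster of chromosome 6, and the other two with 5 genes lay on chromosomes 11 and 19. The region of HIST1H2AD, HIST1H2BF, HIST1H3D, HIST1H4D, HIST1H4E and RP1-34B20.21 had a log2 fold change of -0.02 ± 0.19 at a level of 493 in the authors' deposited table. The 6-gene region from HIST1H2AI to HIST1H4J had 0.05 ± 0.18 and the 5-gene region from HIST1H2AG to HIST1H4I had 0.05 ± 0.19 in that deposited table. HIST1H2BB, whose window is printed above, and HIST1H3C, whose window is not shown, had 0.00 ± 0.21 there. On chromosome 1, HIST2H2AA3, HIST2H2AA4, HIST2H3A and HIST2H3C had -0.24 ± 0.20 and a DESeq2 adjusted p of 0.465 in the authors' deposited table. HIST2H2AA3 and HIST2H2AA4 are near-identical copies, and how reads that fit several copies were handled is not given in the sources used here, so values of these regions are uncertain.

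The other 3 histone regions had values of 0.32 to 0.42. H3F3B, a replication-independent H3 variant gene that shares its region with UNK, had 0.42 ± 0.23, and H2AFZ, the gene of the variant H2A.Z, which shares one with DNAJB14, had 0.32 ± 0.23 in the authors' deposited table. HIST3H2A and HIST3H2BB had 0.35 ± 0.21 in that deposited table. Of this pair only the HIST3H2A window is printed, and a link between TATA matches and the fold change was not tested. The median of the 10 tested single-gene histone promoters was 0.18. Of these, H3F3A had 0.04 ± 0.20, H2AFX 0.16 ± 0.22 and H2AFV 0.24 ± 0.21 in the authors' deposited table. The rest, all with HIST names, lay between -0.10 ± 0.23 at HIST1H3E and 0.37 ± 0.25 at HIST4H4 there. Whether variant and replication-dependent histone genes differed was not tested. For 37 tested regions assigned to histone genes but away from their starts, the median was 0.44, beside 0.31 in all tested regions away from starts. Their median level was low, 35.9, and their median standard error was 0.33. Whether they differed from other such regions was not tested.

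Fatty acid oxidation genes had a median fold change a little above the common shift of 0.32, by less than the standard error of a region. The list's 10 shared promoters had a median log2 fold change of 0.38 and a median standard error of 0.24. All 10 were positive, as were 98.3% of all shared promoters. Its 17 single-gene promoters had the same median to 2 decimals, 0.38, beside 0.36 in all single-gene promoters. HADHA and HADHB had 0.51 ± 0.21 at a level of 246, with a p of 0.0126 and a DESeq2 adjusted p of 0.169 in the authors' deposited table. ACADSB, a dehydrogenase of short branched acyl-CoA, and IKZF5 had 0.54 ± 0.23 and a DESeq2 adjusted p of 0.194 in that deposited table. The smallest value of the list was 0.28 ± 0.24, at ACAD10 and BRAP, in the authors' deposited table. None of the 10 passed the test, beside 0.220% of all shared promoters. At 2 of the 10 (20%) the unadjusted p was under 0.05, against 18.4% of all tested regions and 14.0% of all shared promoters. A region away from the HADHB start, at a listed distance of -27673 bases and named after its value was seen, had 1.27 ± 0.27 and a DESeq2 adjusted p of 0.00208 in the authors' deposited table. Once the common shift was subtracted its adjusted p was 0.145, and the call was lost.

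The lists of DNA upkeep, which shared promoters are known for, lay a little below the shift. The median was 0.24 in 26 shared promoters of DNA repair genes and 0.26 in 22 of DNA replication and cell cycle genes, while the single-gene promoters of these lists had 0.27 and 0.20. FEN1, the flap endonuclease, and TMEM258 had 0.00 ± 0.22, and ATM, the DNA damage kinase, and NPAT, a coactivator of histone genes, had 0.41 ± 0.23 in the authors' deposited table. AFMID and TK1, the S-phase thymidine kinase, had 0.18 ± 0.23 in that deposited table. The 18 regions of pairs that textbooks and reviews describe as shared promoters had a median of 0.25. Of these, 1 (5.56%), HADHA and HADHB, had an unadjusted p under 0.05, against 14.0% of all shared promoters.

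Mitochondrial and protein-upkeep genes stood close to the shift. Medians were 0.31 in 44 shared promoters of the respiratory chain and ATP synthase, 0.27 in 32 of the mitochondrial ribosome, 0.34 in 7 of mitochondrial import, 0.29 in 17 of chaperones and 0.29 in 11 of aminoacyl-tRNA synthetases. Within the respiratory chain list the values ran from 0.05 ± 0.28 at NDUFA2 and IK to 0.63 ± 0.30 at NDUFA8 and MORN5 in the authors' deposited table. ATP5J and GABPA, whose window is printed above, had 0.14 ± 0.22 there. HSPD1 and HSPE1, the mitochondrial chaperonin and its partner, shared a region with 0.24 ± 0.21 in the authors' deposited table. The chaperone list's region of HSPA1A and HSPA1B, which are near-identical copies, is uncertain for the same reason as the histone copies.

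Zinc finger genes had the highest median of the lists with 5 or more shared promoters, 0.40 over 61 regions. At 12 of these the unadjusted p was under 0.05 (19.7%, against 14.0% of all shared promoters and 18.4% of all tested regions). The list's 357 single-gene promoters had a median of 0.37, so a value above the shift was not particular to its shared promoters. The median level of the 61 regions was 82.9, below the 119 of all shared promoters, and low-level regions had higher medians in both promoter sets. The largest fold changes of the 61 were at ZNF540 and ZNF571 with 0.88 ± 0.34 and ETHE1 and ZNF575 with 0.76 ± 0.24 in the authors' deposited table, and their DESeq2 adjusted p-values there were 0.144 and 0.0677. None of the 61 passed the test, beside 0.220% of all shared promoters and 1.67% of all tested regions. Of the lineage markers, PMEL, a melanosome protein, shared a region with CDK2 and RAB5B, with 0.52 ± 0.21 and a DESeq2 adjusted p of 0.167 in the deposited table, and PAX3, a regulator of melanocyte identity, shared one with CCDC140, with 0.26 ± 0.28 there.

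**Figure D5:**
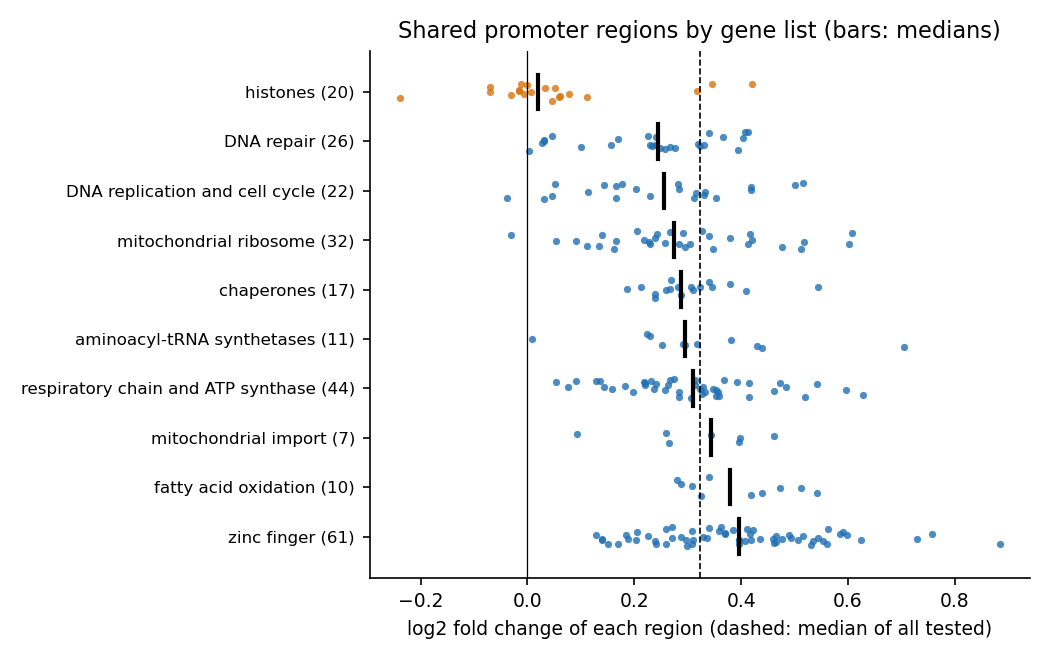
Log2 fold change of each shared promoter region (points, x axis) by gene list (rows, with the number of regions), with the list's median as a bar and the median of all tested regions dashed. The histone list, in orange, has its median at 0.02, and the medians of the other 9 lists run from 0.24 to 0.40.

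The regions with the smallest fold changes outside the histone list had low levels and wide errors. HOGA1 with RP11-548K23.11 had -0.35 ± 0.38 at a level of 22.4, and AC004067.6 with CFI had -0.20 ± 0.35 at a level of 28.8 in the authors' deposited table. GNPTG with TSR3 had -0.10 ± 0.29 and RP11-307N16.6 with SPATA13 had -0.08 ± 0.39 in that deposited table. None of these 4 differed from 0 by as much as its standard error.

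Promoter windows of shared promoters held the ETS motif more often than those of single-gene promoters. CCGGAA, on either strand, was in 39.8% of 2738 windows of shared promoters, 27.6% of 9010 windows of single-gene promoters and 17.2% of all 35116 RefSeq windows. With 1 window per region the first 2 shares were 40.9% and 28.6%. Windows of neighbouring starts overlap, and the second count leaves those repeats out of shared promoters. The NRF1 motif was in 4.57%, 3.35% and 1.92%, and the YY1 motif in 5.33%, 3.61% and 1.75% of the 3 sets. TATAAA was in 4.97%, 5.22% and 11.5%, and the AP-1 motif in 3.76%, 4.53% and 7.71%. The GC box was in 70.8%, 72.7% and 45.0%, CCAAT in 39.8%, 34.2% and 34.6%, the E-box in 10.7%, 9.82% and 7.26%, and the CRE in 3.40%, 3.05% and 1.85%. The median GC content was 64.3% in shared promoters, 66.3% in single-gene promoters and 58.7% in all windows, and the median ratio of observed to expected CpG was 0.856, 0.842 and 0.579.

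Histone genes of shared promoters had 50 windows. Of these, 36 (72%) held TATAAA, 45 (90%) held CCAAT and 4 (8%) held the ETS motif, against 4.97%, 39.8% and 39.8% of all shared promoter windows, and their median GC content was 43.2%. Shared promoters with TATAAA in a window had a median log2 fold change of 0.26, against 0.31 without it. Without the histone regions these medians were 0.29 and 0.31. Shared promoters with and without the ETS motif had medians of 0.31 and 0.31.

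Away from their starts, the genes of shared promoters had calls at about the background rate. Of 1756 tested regions assigned to these genes but away from any start, 34 (1.94%) were called, and all 34 were positive. After centring, 3 of the 1756 regions were under the threshold, but of the 34 calls only that of DEDD2, named below, was left. With adjustment over all distinct regions, 12 of the calls had an adjusted p-value under 0.05. For genes of single-gene promoters the count was 311 of 16773 (1.85%), of which 306 were positive. The background over all tested regions was 1.67%, and 601 of those 608 calls were positive. At least 1 region of any kind away from a start, with an adjusted p-value, was listed for 31.5% of the genes of shared promoters and 55.0% of those of single-gene promoters. Examples named after their values were seen are DEDD2, a death-effector protein, with 1.35 ± 0.25 and a DESeq2 adjusted p of 0.000289, and SDCCAG8, a centrosomal protein, with 1.20 ± 0.24 and 0.000774 in the authors' deposited table. With the shift subtracted, their adjusted p-values were 0.0488 for DEDD2 and 0.106 for SDCCAG8, and the second call was lost. The promoter regions of these 2 genes, shared with ZNF526 and CEP170, had 0.59 and 0.46 in the deposited table and did not pass the test.

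Shared promoters were spread over 23 chromosomes. Their share of promoter regions ran from 8.77% on X to 18.4% on chromosome 14. On chromosome 19, which is dense in zinc finger genes, 122 shared promoters had a median log2 fold change of 0.37, beside 0.41 for all tested regions there. On X, 25 shared promoters had a median of 0.25, the lowest of the 23 chromosomes, and 260 single-gene promoters one of 0.39. On chromosomes 2, 13 and 15 shared promoters had the higher median (0.34 against 0.33, 0.39 against 0.37 and 0.36 against 0.35). Differences between chromosomes were not tested.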

How the data were processed

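H3K27ac chromatin immunoprecipitation was compared between 2 vehicle and 2 octanoate libraries of A375 cells, grouped by the treatment in the labels. The deposited file is 1 table of the authors' comparison, and its headers are those of a DESeq2 result. The submitters' processing notes name the build hg38 and the tools Trim Galore, cutadapt, FastQC, Bowtie2, Picard, MACS2, featureCounts, DESeq2 and bedtools 2.29.1, with no role or order. The mean level is a signal normalized by the authors, and its scaling is not given in the sources used here. Each log2 fold change, with a standard error, is the authors' own, per the file headers. The statistic, a score in the deposited table, equals the fold change over its standard error, and the deposited p-value is its two-sided normal p-value. Adjusting by Benjamini-Hochberg over the 36436 regions whose deposited adjusted p-value is below 1 gave back the authors' values, so 1 was read as not computed. The design's test across libraries (edgeR or limma) could not be run, because the table holds no value per library. Columns of single libraries left out numbered 0, and the depth is unknown.

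Lines of 1 region were merged by removing the number that the table adds to a repeated region. Coordinates are as the deposited table writes them. Calls have a deposited adjusted p-value under 0.05. Centring subtracted the median of tested regions and took p from the authors' standard error, adjusted over the same regions. Strands, starts and windows came from RefSeq (GRCh38.p14), which holds several starts per gene and has no entry for some, and the closest pair of starts inside the region was used. For 96.5% of the lines of shared promoters with a window, a RefSeq start lay inside the region. That check does not show which start the authors used.

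Named regions were all calls, the 5 with the highest level, the 5 with the smallest fold change, the 3 with the most genes (2 with 6 genes, and 1 taken by level from 4 tied at 5), the 3 widest and members of the gene lists. Others are said to be named after their values were seen. The regions, lists, motifs and rule were chosen with earlier results of these data known. The collagen list had 1 tested shared promoter, at 0.43. Python 3.11.15 with pandas 2.3.3, numpy 2.4.6 and scipy 1.17.1 was used, and the procedures were tested on simulated data. No test was made over regions, which are not replicates. Alternatives were a stricter threshold, a minimum fold change, other adjustment, centring, level filters, exactly 2 genes, divergent pairs only and other start choices. Values of some single regions are left out of the text.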

Additional observations from a re-analysis of the deposited data

How the results depend on the processing

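Of the counts of called shared promoters, 3 became 1 at an adjusted p-value under 0.01, 1 with adjustment over all distinct regions, 1 after centring and 1 among divergent pairs only. It was 2 where the log2 value also had to be 1 or more in size, and 3 with exactly 2 genes or without histones. For divergent pairs the construction gives the reason, since the other 2 called regions could not be placed. At 0.01 the HES4 and AP3S1 regions dropped out because their deposited DESeq2 adjusted p-values were 0.035 and 0.0411. With adjustment over all distinct regions these were 0.0863 and 0.101, and after centring 0.59 and 0.901. The median log2 fold change of shared promoters, 0.31, turned to -0.011 after centring, which subtracts the median of all tested regions, and that of histone shared promoters, 0.02, turned to -0.30. Under the other settings for all shared promoters, including quartiles of level and of width, the median stayed between 0.28 and 0.41. The share of divergent pairs, 84.2%, was 78.5% with the first listed start of each gene, a setting chosen after seeing the data, and the cause was not tested. The ETS share of windows, 39.8%, was 42.8% among divergent pairs only. Leaving histones out of the count of calls was planned. Leaving them out of the median and the ETS share was chosen after seeing the data. So were leaving out H2AFZ, H3F3B or near-identical histone copies, and the later adjustment of the called regions. Level and width medians moved by less than 1.5 times.

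No paired analysis was possible because values of single libraries are not in the table analysed. No library could be left out either, and how far 1 library decides a fold change is unknown. The depth behind each region is unknown, so a p-value that misses the threshold does not show that a region did not differ. How the 0.32 shift of all tested regions relates to the authors' scaling was not tested.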
